A study of Bos taurus with 18 samples.

Results

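The comparison set leukocytes of F1 hybrid cattle against leukocytes of Red Angus cattle, with every animal labelled as under heat stress. Its members were 12 of the 18 libraries of the series, chosen by the breed label: 6 F1 animals (Red Angus x Droughtmaster) and 6 Red Angus animals, all female. Red Angus is a beef breed of Bos taurus, and Droughtmaster is a tropically adapted breed of mixed Bos indicus and Bos taurus ancestry. Blood was taken from the tail vein into EDTA, and the white cell layer was lysed for mRNA sequencing. The labels give no age, no parentage, and no direction of the cross. Replicate numbers below follow the order of the samples in the series and do not come from the labels. No animal outside heat stress was analysed here, so the comparison concerns breed and not heat. Nothing in the labels says how the animals were housed or on which day they were bled, and p-values measure the spread between these samples.

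Leukocytes of blood are a mixture of neutrophils, lymphocytes, monocytes and rarer cells, and their proportions differ from animal to animal. Under heat load, leukocytes are known to raise heat shock proteins, which keep other proteins folded, and to shift their immune gene programme under glucocorticoids. An F1 animal carries a chromosome set from each breed, so a gene whose regulation differs between the breeds can show a level between both parents or near one of them. In bulk RNA, fewer cells of a type and less RNA per cell cannot be told apart.

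The count table lists genes by Ensembl identifier only, and 0 of its 27607 identifiers matched a symbol in the reference table used here. Gene names, positions and sequences are therefore not given, and neither the leukocyte markers nor the heat shock and immune gene lists could be read. Near-identical gene copies could not be looked for either, so each named identifier is uncertain in that respect. The results describe how large the differences were, how tightly each was bounded, and how far animals of the same group differed. Of the 27607 genes, 7832 had 0 counts in all 12 libraries, 12580 had counts in every library, and 12911 passed the filter on low counts and were tested.

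The libraries held between 14661602 and 23926775 counts on Ensembl genes. Between 14163 and 17115 genes had at least 1 count in a library. The TMM factor, which corrects a library's scale for its composition, ranged from 0.745 to 1.33 in Red Angus and from 0.886 to 1.22 in the F1. The 100 most abundant genes of a library held 32.9% ± 5.83 of the counts of a Red Angus library and 32.5% ± 4.03 of those of an F1 library (SD, n = 6 each; exact two-sided permutation p = 0.866). No measure of the libraries passed a test between the groups (8 measures, smallest exact permutation p = 0.128, adjusted p = 0.592). Every pair of libraries differed beyond counting noise, with a chi-square of at least 52.6 per degree of freedom, so all 12 were used as separate samples.

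Animals of both groups were intermixed in their leukocyte profiles. The first principal component of log2 CPM (TMM-scaled CPM, a gene's share of the counts of its library) took 45.0% of the variance and the second took 17.4%. On the first component, F1 libraries ranged from -77.6 to 67.2 with a median of 21.9, and Red Angus libraries from -95.3 to 86.4 with a median of -21.8, so the F1 range lay inside the Red Angus range. Group means on it were 14.8 ± 49.3 and -14.8 ± 70.9 (SD, n = 6 each; exact two-sided permutation p = 0.413, adjusted p = 0.444 over both components). Its low end was held by Red Angus replicates 4 and 2 and by F1 replicate 2, at -95.3, -80.6 and -77.6, and they had the fewest genes with counts (14466, 14383 and 14163). Red Angus replicate 5 lay at the high end and had the most genes with counts, 17115. The part of this difference in genes with counts in the results below was not tested.

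**Figure D1:**
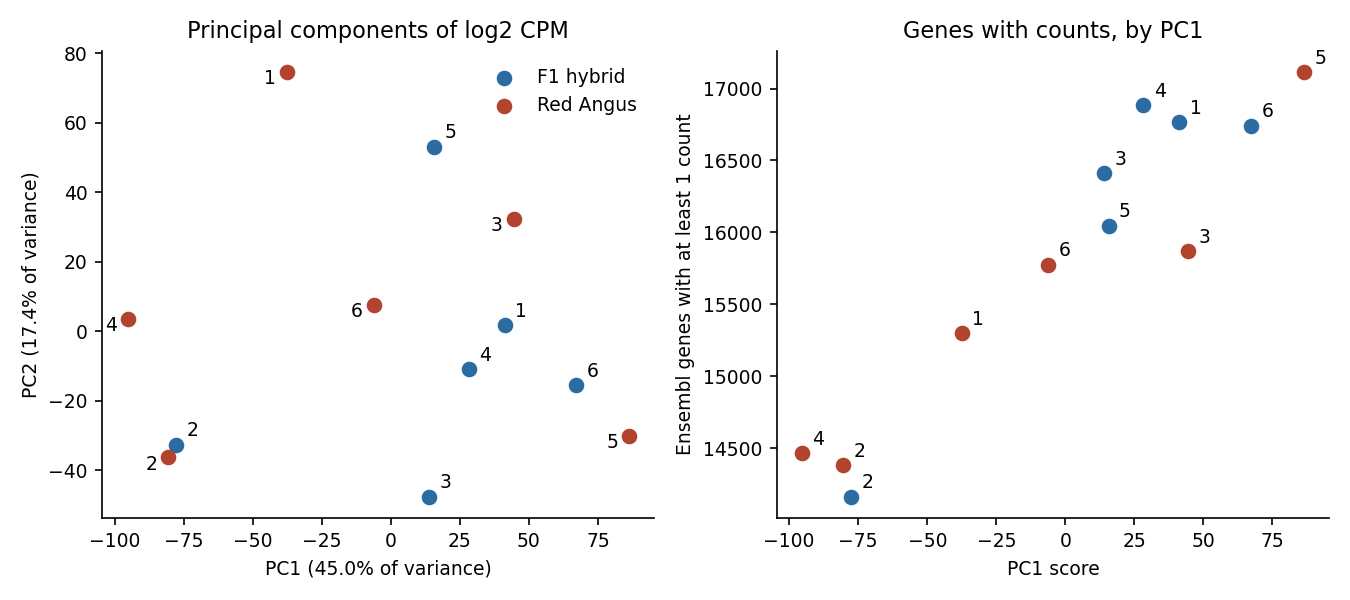
Each point is 1 library, numbered by replicate. The left panel plots the first against the second principal component of log2 CPM, and the right panel plots the number of Ensembl genes with at least 1 count against the first component. F1 replicate 2 sits beside Red Angus replicate 2, and the libraries at the low end of the first component have the fewest genes with counts.

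For each Red Angus animal, the most similar leukocyte profile came from an F1 animal. Taking the median absolute log2 difference over the 12911 genes as the distance between libraries, the nearest library was an F1 library for each of the 6 Red Angus libraries. For the F1, it was another F1 library in 4 of 6 cases. Pairs of Red Angus libraries differed by a median of 0.655 (15 pairs, range 0.447 to 1.28), or 1.57-fold for the middle gene. Pairs of F1 libraries differed by 0.504 (15 pairs, range 0.28 to 1.01), or 1.42-fold. Pairs of 1 F1 and 1 Red Angus library differed by 0.648 (36 pairs, range 0.318 to 1.18), about as much as Red Angus animals differed from each other. Each library enters several pairs, so these distances are a description and carry no test. Of the total sum of squares of log2 CPM, 7.97% lay between the group means, 56.5% within Red Angus and 35.5% within the F1. The group difference takes 1 of the 11 degrees of freedom, and an even share per degree of freedom would be 9.09%.

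No gene differed between F1 and Red Angus leukocytes at an adjusted p under 0.05. Fitted on these 12 libraries, the quasi-likelihood test of edgeR called 0 of 12911 genes after Benjamini-Hochberg adjustment (0%, smallest adjusted p = 0.999). limma-voom and DESeq2's Wald test also called 0, with smallest adjusted p of 0.962 and 0.0774. Before adjustment, 314 genes (2.43%) had a p under 0.05 by edgeR, 309 (2.39%) by limma-voom and 451 (3.5%) by DESeq2. Weighting each library by its fitted quality in limma-voom gave 1703 (13.2%), 1015 higher and 688 lower in the F1, with 0 genes at an adjusted p under 0.05 (smallest 0.287). By edgeR 99 of the 314 were higher (0.767% of genes tested) and 215 lower in the F1 (1.67%). This split depended on the tool: limma-voom without sample quality weights gave 179 higher and 130 lower. It also differed without the filter on low counts, where scarcer genes entered. There edgeR tested 19775 genes, and 4.72% had a p under 0.05, 530 higher and 404 lower in the F1. Single animals also moved the number in edgeR. Omitting Red Angus replicate 5 gave 1314 genes (10.1% of those tested) and omitting F1 replicate 2 gave 713 (5.45%). Omitting Red Angus replicate 4, F1 replicate 1 or F1 replicate 6 gave 168 (1.29%), 194 (1.49%) and 207 (1.59%). In each of these fits, 0 genes had an adjusted p under 0.05.

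Among genes of at least 5 CPM, the 2 identifiers with the smallest edgeR p in each direction are described next. None passed, and none was near the threshold by edgeR. ENSBTAG00000031814, an abundant transcript, measured between 169 and 319 CPM in the F1 with a median of 246, and between 226 and 2596 CPM in Red Angus with a median of 839. All F1 libraries lay below the Red Angus median, but Red Angus replicate 2, at 226 CPM, lay within the F1 range. The log2 fold change (F1 minus Red Angus) was -2.06 ± 0.468 (SE), with a 95% interval from -3.06 to -1.06. Its adjusted p was 0.999 by edgeR and 0.0774 by DESeq2's Wald test. Group means were 245 ± 53.4 and 1021 ± 861 CPM (SD, n = 6 each). Red Angus replicate 4 alone reached 2596 CPM, and without it the log2 fold change was -1.49.

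ENSBTAG00000051633 measured between 19.9 and 88.8 CPM in the F1 with a median of 61.6, and between 51.8 and 372 CPM in Red Angus with a median of 259. Red Angus replicates 2 and 5, at 51.8 and 94.2 CPM, were the low Red Angus libraries, and 3 of 6 F1 libraries lay below every Red Angus library. The log2 fold change was -2.005 ± 0.476 (95% interval -3.02 to -0.988). Its adjusted p was 0.999 by edgeR and 0.0774 by DESeq2's Wald test.

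In the other direction, ENSBTAG00000006383 measured between 24.4 and 598 CPM in the F1 with a median of 95.8, and between 2.81 and 55.0 CPM in Red Angus with a median of 19.5. In the F1 it was high in replicates 1 and 6 (591 and 598 CPM) and at 120 CPM or less in the others, and 5 of 6 F1 libraries lay above every Red Angus library. The log2 fold change of 3.30 ± 0.823 had a 95% interval from 1.54 to 5.06, or 2.92-fold to 33.4-fold (edgeR adjusted p = 0.999). ENSBTAG00000004297 was the one identifier of these 4 whose groups did not overlap, at 9.24 to 15.8 CPM in the F1 and 5.31 to 7.68 CPM in Red Angus (medians 10.9 and 6.26). Its difference was smaller, with a log2 fold change of 0.861 ± 0.243 (95% interval 0.343 to 1.38, edgeR adjusted p = 0.999). Leaving out any 1 of the 12 libraries left the direction of all 4 identifiers as it was, and no edgeR adjusted p fell below 0.434. The 4 were picked from these same libraries, so the kept direction is no separate evidence of a difference.

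**Figure D2:**
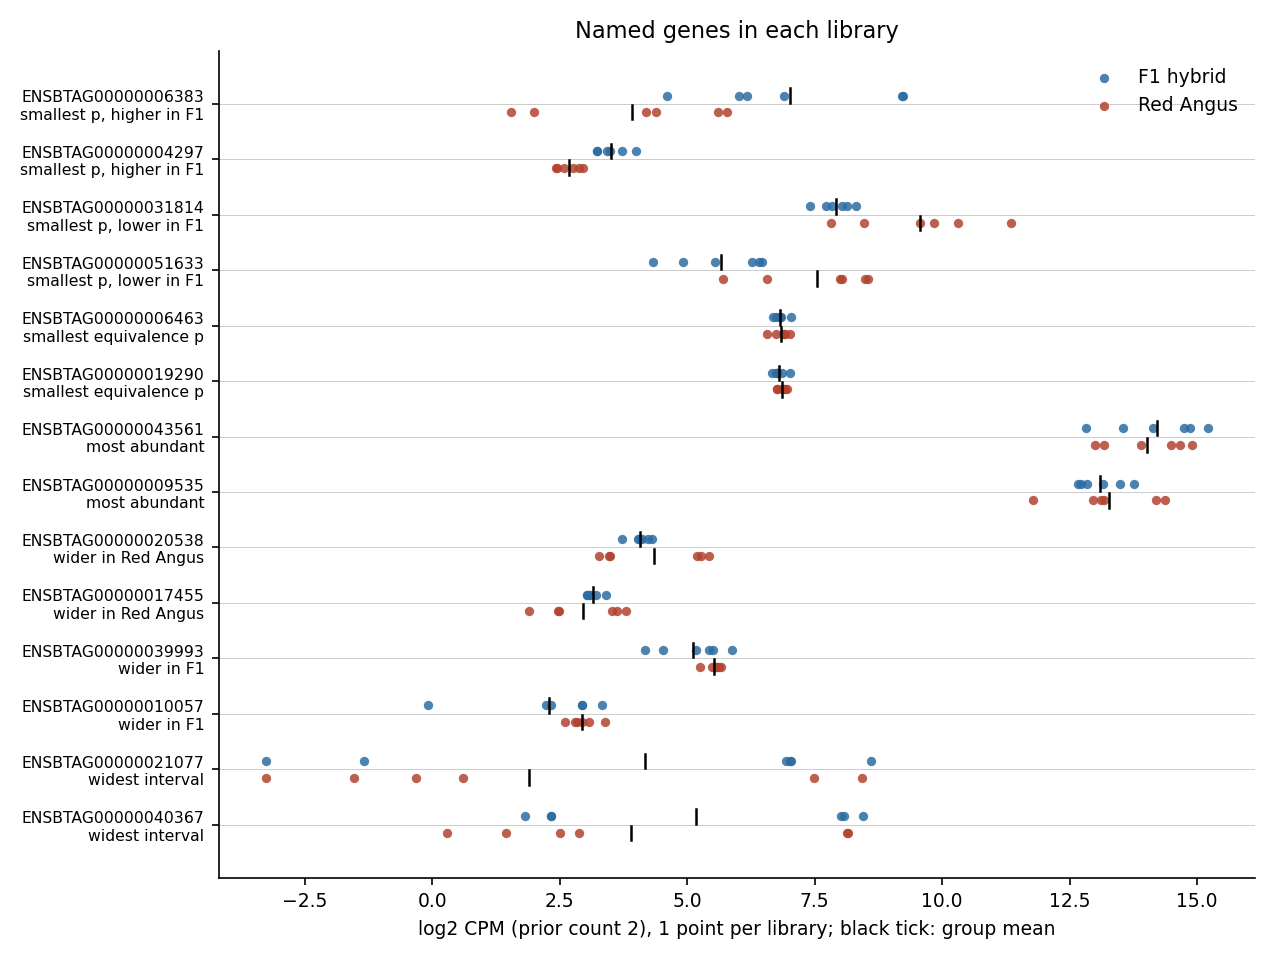
Log2 CPM (prior count 2) of the 14 named identifiers, with 1 point per library, F1 above and Red Angus below each line, and a black tick at the group mean. The upper 4 identifiers have the smallest p among genes of at least 5 CPM, 2 per direction. The next 2 are the genes of at least 100 CPM best shown to be alike. The last 2 vary between low and high levels among animals of both groups.

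Groups that do not overlap were rare. In 9 of the 12911 genes (0.0697%) every F1 library lay on one side of every Red Angus library, 4 with the F1 higher (0.0310%) and 5 with the F1 lower (0.0387%). The median size of their difference was 0.861 on the log2 scale, and 2 of the 9 were also shown to be alike within 2-fold by the test described below. Before the filter on low counts, 0 of the 27607 genes had counts in all 6 libraries of one group and none in the other.

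Estimated differences were small for most genes. The middle log2 fold change was -0.0355, and the central 80% of genes ran from -0.469 to 0.429. TMM scaling sets the typical difference between libraries near 0, so the middle value is largely fixed by the scaling. Each difference is relative to the other genes of the library, and RNA per cell was not measured. Without regard to direction, the median size was 0.234, or 1.18-fold, and the highest decile began at 1.54-fold. A total of 11420 genes (88.5%) had an estimate under 1.5-fold, 369 (2.86%) an estimate of at least 2-fold, and 17 (0.132%) of at least 4-fold, with extremes of -4.00 and 3.81. Of the 369, 128 were higher and 241 lower in the F1. These are estimates, and those of 2-fold or more were commonest among the scarcest genes: 9.28% of genes under 1 CPM reached it, against 1.52% of genes from 100 to 500 CPM. The share was 4.28% in the 304 genes of at least 500 CPM.

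A 95% interval gives the range of differences that each gene's data allow. Its half-width had a median of 0.794 on the log2 scale, and the bound farthest from 0 had a median of 1.06, or 2.09-fold. The interval lay within 1.5-fold in both directions for 878 genes (6.8%), within 2-fold for 5711 (44.2%) and within 4-fold for 12045 (93.3%). For 866 genes (6.71%) it reached 4-fold or beyond, and for 91 (0.705%) 8-fold or beyond. In 7 genes, 2 higher and 5 lower in the F1, the whole interval lay beyond 2-fold. Each interval covers its own gene at 95% and makes no allowance for the 12911 genes examined.

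Precision followed abundance up to a point and then worsened. The median standard error was 0.644 for genes under 1 CPM, 0.484 from 1 to 5 CPM, 0.379 from 5 to 20 CPM, 0.304 from 20 to 100 CPM and 0.295 from 100 to 500 CPM. It was 0.378 in the 304 genes of at least 500 CPM. The farther bound had a median of 3.57-fold in the scarcest class, 1.83-fold from 100 to 500 CPM and 2.17-fold at 500 CPM or more. The interval lay within 2-fold in 0.693% of the scarcest class, in 64.7% of genes from 100 to 500 CPM and in 36.2% of the most abundant class. The spread between animals followed the same course in both groups.

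**Figure D3:**
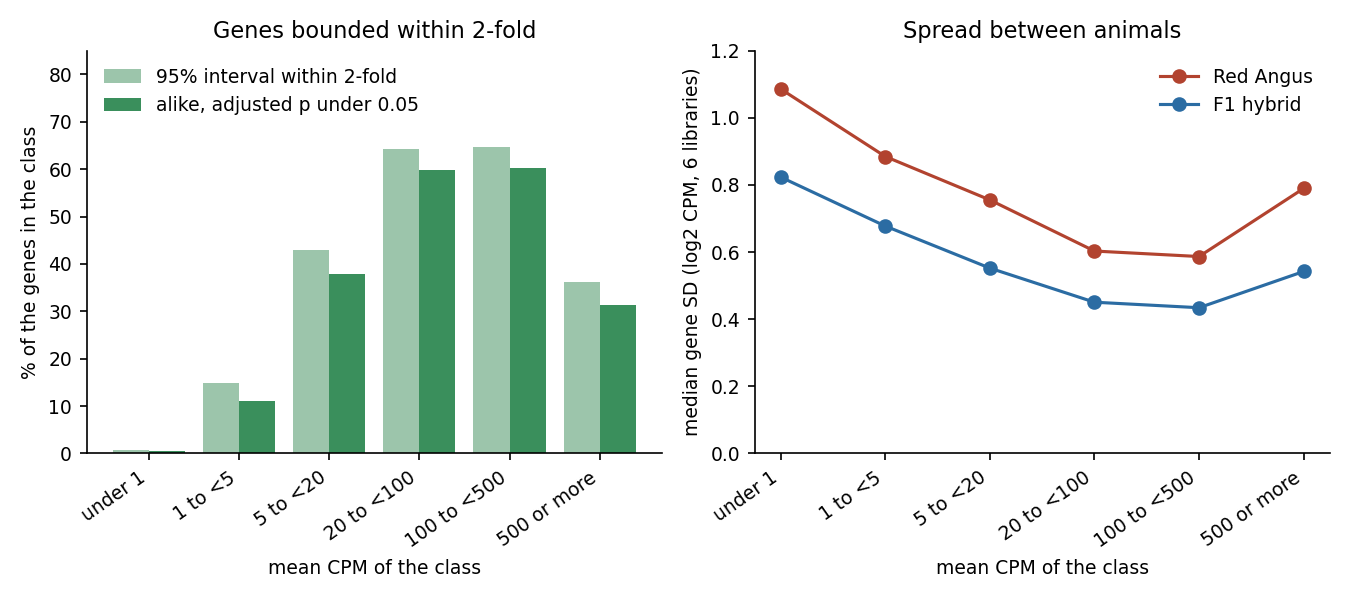
Classes of genes by mean CPM on the horizontal axes. Bars in the left panel give the share of a class with a 95% interval within 2-fold and the share shown to be alike within 2-fold, both highest from 20 to 500 CPM; lines in the right panel give the median SD of log2 CPM between the 6 libraries of each group, with Red Angus above the F1 in all 6 classes.

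Abundant genes were often shown to be alike in both groups. Likeness was tested directly, by 2 one-sided tests of whether the difference is smaller than 2-fold in both directions, from the same edgeR fit and with Benjamini-Hochberg adjustment over all 12911 genes. At an adjusted p under 0.05, 5162 genes (40.0%) were alike within 2-fold. Likeness here is in a gene's TMM-scaled share of its library, not in its amount per cell. Among the 1748 genes with a mean of at least 100 CPM, 965 (55.2%) were alike. These 965 genes held 26.3% of all TMM-scaled counts and 34.7% of those on abundant genes. Their estimates had a median size of 0.151 on the log2 scale and none exceeded 0.522. Their 95% intervals reached at most 1.96-fold. Small estimates and narrow intervals follow from passing the test, which uses the same estimates and standard errors.

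The other 783 abundant genes were not shown to be alike, which does not show that they differ. Of them, 680 had an estimate under 1.5-fold. Standard errors of the 783 were wider, with a median of 0.392 against 0.257 in the 965 alike genes. The median size of their estimates was 0.369. The test sorts genes by these values, so this contrast is partly built in. By edgeR, 54 of the 1748 abundant genes (3.09%) had an unadjusted p under 0.05, 9 higher and 45 lower in the F1. This share and the 2.43% of all genes tested both lay under the nominal 5%. The split is by edgeR alone, and over all genes it depended on the tool. The genes that dominate the libraries were seldom among the alike: 1 of the 20 most abundant, which held 13.4% of counts, 14 of the 100 most abundant, and 95 of the 304 with at least 500 CPM passed.

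ENSBTAG00000006463 had the smallest p for likeness among abundant genes. It measured between 103 and 132 CPM in the F1 with a median of 113, and between 94.7 and 129 CPM in Red Angus with a median of 119. The groups overlapped almost fully, and Red Angus replicate 5 was the low library. The log2 fold change was -0.0134 ± 0.169 (95% interval -0.374 to 0.347, or 0.772 to 1.27 times the Red Angus level; equivalence test on the edgeR fit, adjusted p = 0.00729). ENSBTAG00000019290 measured 102 to 130 CPM in the F1 and 108 to 125 CPM in Red Angus (medians 108 and 118). Its log2 fold change was -0.0582 ± 0.163 (95% interval -0.406 to 0.289, equivalence adjusted p = 0.00729). Both stayed alike when any 1 library was left out, with an adjusted p of at most 0.0203.

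The 2 most abundant genes were not shown to be alike. ENSBTAG00000043561, with a mean of 20339 CPM, measured between 7263 and 37762 CPM in the F1 with a median of 22677, and between 8136 and 30335 CPM in Red Angus with a median of 19180. Low and high libraries occurred in both groups, with F1 replicate 3 and Red Angus replicates 4 and 2 at the low end. The log2 fold change was 0.238 ± 0.47 (95% interval -0.767 to 1.24, equivalence adjusted p = 0.0987). ENSBTAG00000009535, with a mean of 10387 CPM, ran between 6449 and 13846 CPM in the F1 and between 3531 and 21282 CPM in Red Angus (medians 8219 and 9072). Its range was 2.15-fold in the F1 and 6.03-fold in Red Angus, and the log2 fold change was -0.339 ± 0.422 (95% interval -1.24 to 0.563, equivalence adjusted p = 0.105).

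**Figure D4:**
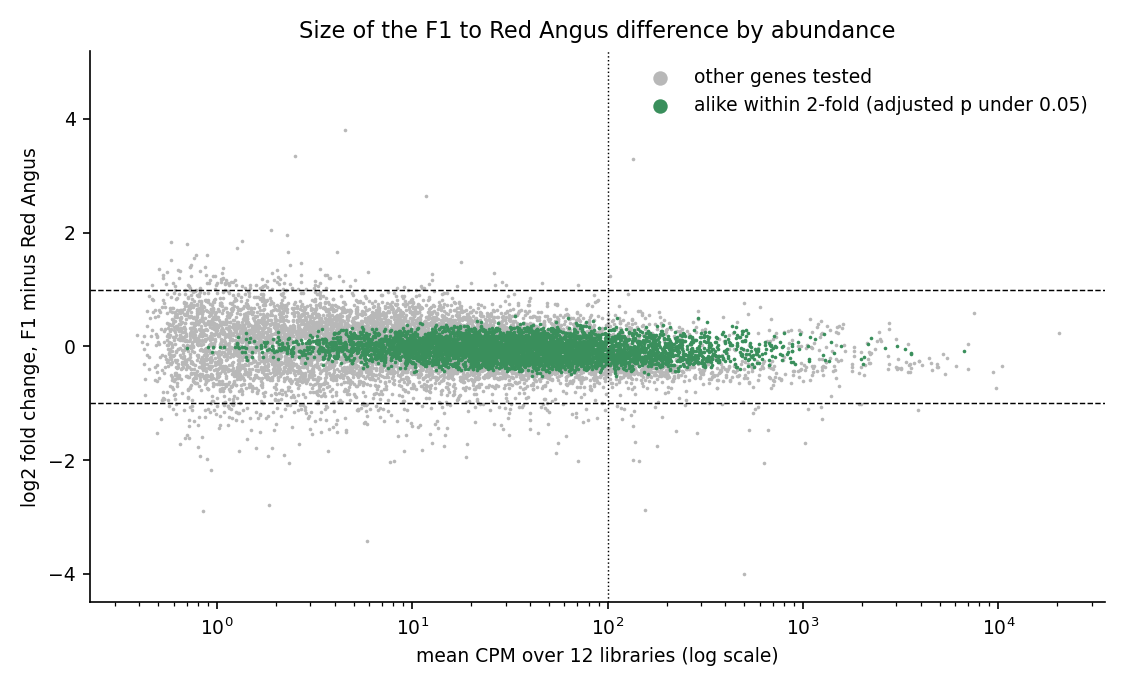
Each point is 1 of the 12911 genes tested, with the mean CPM on a log axis and the log2 fold change (F1 minus Red Angus) on the vertical axis. Dashed lines mark 2-fold and the dotted line marks 100 CPM. The genes shown to be alike within 2-fold cluster around 0 and thin out at both ends of the abundance range.

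The likeness count depended on which animals entered. Omitting Red Angus replicate 5 gave 644 genes and omitting Red Angus replicate 4 gave 1309, with the other 10 single omissions between these values. With a 1.5-fold margin in place of 2-fold, 0 of the 1748 abundant genes passed, and with a 4-fold margin 1716 passed. Genes of a library vary together, as the first component shows, so the 965 genes are not 965 separate pieces of evidence.

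Some abundant genes had very wide bounds, and were low in some animals of each group and high in others. ENSBTAG00000021077 measured 0 to 389 CPM in the F1 and 0 to 345 CPM in Red Angus. It was at 123 to 389 CPM in F1 replicates 2, 3, 5 and 6 and at 179 and 345 CPM in Red Angus replicates 2 and 3, and at most 1.42 CPM in the other 6 libraries. F1 replicate 4 and Red Angus replicate 4 had 0 counts, which allows up to 0.123 and 0.191 CPM (3 counts). Its log2 fold change was 0.554 ± 1.72 (95% interval -3.12 to 4.23), the widest of any abundant gene.

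ENSBTAG00000040367 also had low and high libraries, in a different set of animals, but was detected in every library with at least 29 counts. Its level was 259 to 349 CPM in F1 replicates 4, 5 and 6 and 283 and 286 CPM in Red Angus replicates 3 and 6, and 1.13 to 7.31 CPM in the remaining 7 libraries. The log2 fold change was 0.607 ± 1.38 (95% interval -2.35 to 3.56). Among the 9567 genes with a mean of at least 5 CPM, 43 differed by over 100-fold between the highest and the lowest of the 12 libraries, with libraries under 0.01 CPM set to that value. Within a single group, 26 genes did so among Red Angus libraries and 13 among F1 libraries, with 5 genes counted in both.

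Red Angus animals differed more from each other than F1 animals did, in most genes. The SD of log2 CPM over the 6 libraries of a group had a median over genes of 0.719 for Red Angus and 0.534 for the F1, with quartiles of 0.5 and 1.001 and of 0.37 and 0.752. The SD was larger in Red Angus in 10040 of 12911 genes (77.8%). It was over 2-fold larger in Red Angus in 1717 genes (13.3%) and over 2-fold larger in the F1 in 217 (1.68%). The common biological coefficient of variation, the relative spread beyond counting noise that edgeR estimates from each group alone, was 56.9% in Red Angus and 42.9% in the F1. The order held in every abundance class, with median SDs of 1.09 against 0.823 under 1 CPM, 0.587 against 0.434 from 100 to 500 CPM, and 0.79 against 0.542 at 500 CPM or more. Among the 965 abundant genes shown to be alike, 767 (79.5%) had the larger SD in Red Angus, with medians of 0.47 and 0.349. Genes are not replicates, and these counts carry no test.

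Over animals, the difference in spread did not pass. Each library was given 1 value, the median over genes of its absolute log2 difference from the mean of the other 5 libraries of its group. Red Angus libraries ranged from 0.366 to 0.847 with a median of 0.575, and F1 libraries from 0.244 to 0.756 with a median of 0.399. Red Angus replicate 5 and F1 replicate 2 were farthest from their groups, and the ranges overlapped. Means were 0.599 ± 0.165 and 0.429 ± 0.187 (SD, n = 6 each), a difference of 0.169 (exact two-sided permutation p = 0.128, where the smallest possible is 0.00216). Without F1 replicate 2 the difference was 0.264 (exact p = 0.013) and without Red Angus replicate 6 it was 0.237 (exact p = 0.0476). These libraries held the largest F1 value (0.756) and the smallest Red Angus value (0.366), so omitting either tends to widen the gap. The other 10 single omissions gave 0.11 to 0.205, none with an exact p under 0.05. The values within a group are computed from shared libraries, so they are not fully independent. The permutation kept each value as computed within its true group, so its p is approximate.

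**Figure D5:**
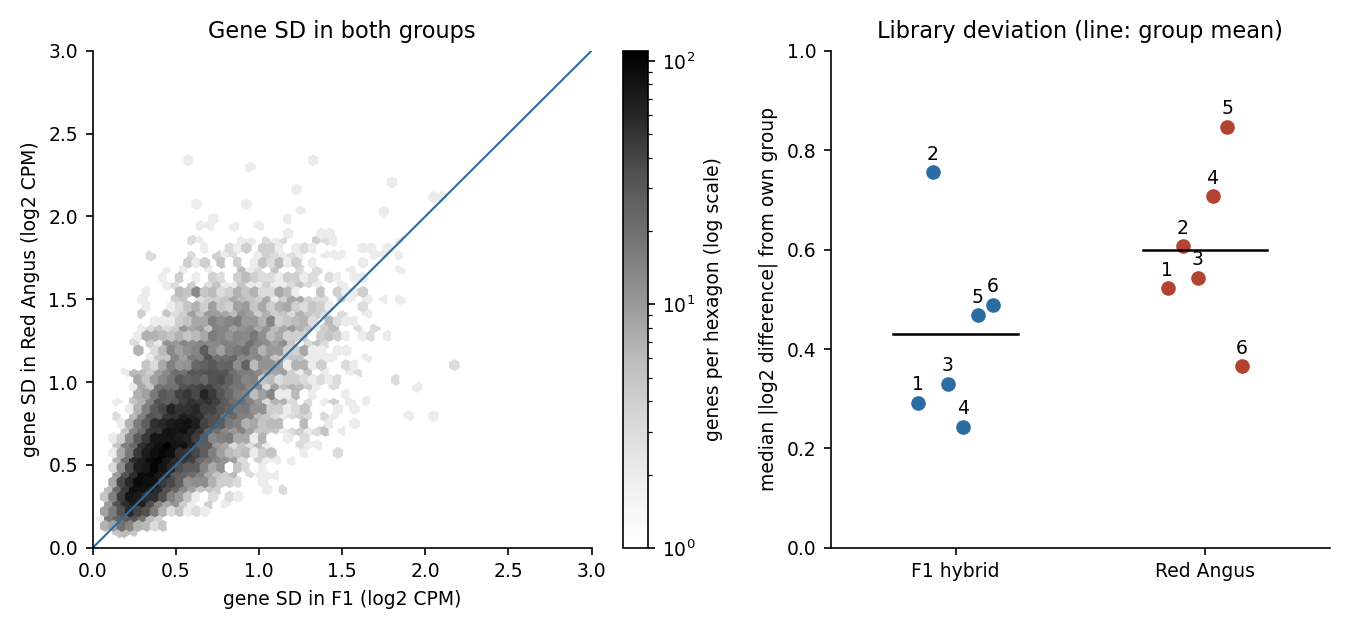
The left panel plots the SD of log2 CPM of each gene in Red Angus against that in the F1, as hexagons shaded by the number of genes on a log scale, with the line of equality; 12 genes lie outside the axes. The right panel plots the deviation of each library from its own group, numbered by replicate, with a line at the group mean. Most genes lie above the line of equality, while the library values of both groups overlap.

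The difference in spread was smaller outside the first principal component. With that component removed from log2 CPM, the median gene SD was 0.442 in Red Angus and 0.373 in the F1, and 63.8% of genes had the larger SD in Red Angus. The component was taken from these same libraries, and Red Angus scores spread wider on it (SD 70.9 against 49.3). A smaller difference after its removal was therefore partly built in. Without Red Angus replicate 5, median SDs were 0.634 and 0.537 (67.2% of genes wider in Red Angus). Without F1 replicate 2 they were 0.724 and 0.41 (85.3%).

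Gene by gene, no difference in spread passed. limma on absolute deviations from the group mean, with Benjamini-Hochberg adjustment, called 0 of 12911 genes (0%, smallest adjusted p = 0.488). Before adjustment, 1040 genes (8.06%) had a p under 0.05, 933 of them wider in Red Angus and 107 wider in the F1. A count of 0 here does not show that the spreads are equal.

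ENSBTAG00000020538 and ENSBTAG00000017455 had the smallest spread p among genes wider in Red Angus. ENSBTAG00000020538 measured 13.2 to 19.8 CPM in the F1 (median 16.9) and 9.56 to 43.1 CPM in Red Angus (median 23.7). Red Angus replicates 3, 5 and 6 lay above all F1 libraries, at 36.4 to 43.1 CPM, and replicates 1, 2 and 4 lay below all of them, at 9.56 to 11.1 CPM. Its SD was 1.04 log2 CPM in Red Angus and 0.204 in the F1 (limma adjusted p = 0.488). ENSBTAG00000017455 measured 8.13 to 10.5 CPM in the F1 and 3.63 to 13.8 CPM in Red Angus, with nearly equal medians of 8.42 and 8.44. Its SD was 0.78 against 0.139, and its level was alike within 2-fold (log2 fold change 0.0188 ± 0.333, equivalence adjusted p = 0.0241, and up to 0.0531 without 1 library).

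The reverse order was seen in ENSBTAG00000039993, at 18.0 to 58.4 CPM in the F1 (median 39.3) and 38.2 to 50.4 CPM in Red Angus (median 48.0). F1 replicates 1, 2 and 3 lay below every Red Angus library and F1 replicate 4 above. Its SD was 0.145 log2 CPM in Red Angus and 0.641 in the F1 (limma adjusted p = 0.488). ENSBTAG00000010057 measured 0.837 to 10.01 CPM in the F1 and 5.97 to 10.4 CPM in Red Angus. F1 replicate 3 alone was under 1 CPM, and the SD was 0.271 log2 CPM in Red Angus against 1.23 in the F1 (limma adjusted p = 0.488).

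Abundant genes with a narrow range were more numerous in the F1. Of the 1748 genes of at least 100 CPM, the highest of 6 libraries was under 2 times the lowest in 594 genes in the F1 and in 328 genes in Red Angus. Over all 12 libraries, 242 genes kept within that range.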

How the data were processed

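Leukocyte mRNA of 18 cattle was sequenced, and the 6 F1 and 6 Red Angus libraries were analysed here. The authors deposited raw counts per gene; per the submitters' processing notes, the tools were DESeq2 1.16.1, featureCounts 1.5.0-p3 and HISAT2 2.0.5 and the build was ARS-UCD1.2. The annotation release, the filters and whether strand was used in counting are not given in the sources used here. Whether reads of overlapping or antisense genes were kept apart is therefore not known. All 18 count columns matched a sample by title. Only Ensembl rows entered the tests. Libraries held 14661602 to 23926775 such counts, which sets the counting error.

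Genes were filtered with filterByExpr, scaled by TMM and tested two-sided with edgeR 4.0.16 (quasi-likelihood, robust; R 4.3.3) on these 12 libraries, with no covariate, since the labels give no batch or pairing. Standard errors came from the fitted weights and moderated quasi-dispersion. CPM uses TMM-scaled totals, and log2 CPM a prior count of 2. Likeness used 2 one-sided tests against 2-fold. Spread used limma 3.58.1 on absolute deviations scaled for group size. Adjustment was by Benjamini-Hochberg, with a threshold of 0.05. Scripts were tested on simulated data.

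The libraries, tests and lists were chosen with earlier results of these data known. Without symbols, the rule named 2 identifiers of at least 5 CPM with the smallest p in each direction, 2 of at least 100 CPM with the smallest equivalence p, the 2 most abundant, 2 per direction with the smallest spread p, and 2 of at least 100 CPM with the widest interval. The 24 gene and marker lists, and the planned test of marker levels, could not be used. Alternatives were other scaling, filters, tools, margins and left-out libraries. Removing the first component, and leaving out Red Angus replicate 5 together with F1 replicate 2, were chosen after seeing the data.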

Additional observations from a re-analysis of the deposited data

Results flagged for a closer look

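Of 44 groups of 6 values examined (8 library measures and the CPM of 14 named identifiers in each group), 3 held a library far from the other 5 of its group. About 1 in 20 such groups would be set apart by chance if their values were independent and normally distributed. CPM of picked genes and related library measures need not be, so that rate is only a rough guide. F1 replicate 2 had 14163 genes with counts, where the other F1 libraries had 16047 to 16885. The same library lay at -77.6 on the first principal component, where the other F1 libraries lay between 14.0 and 67.2. ENSBTAG00000021077 measured 389 CPM in F1 replicate 5, where the other F1 libraries measured at most 132 CPM.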

How the results depend on the processing

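No setting gave a gene at an adjusted p under 0.05 between F1 and Red Angus leukocytes, and edgeR gave none under 0.1. By DESeq2's Wald test, ENSBTAG00000031814 and ENSBTAG00000051633 had an adjusted p of 0.0774, the smallest of that test. Other genes can share this value, and the genes under 0.1 by that test were not counted. With all libraries, the genes at an unadjusted p under 0.05 numbered 314 (2.43%) by edgeR and 1703 (13.2%) by limma-voom with sample quality weights. With 1 library left out, calls ranged from 0 to 0, genes with an interval within 2-fold from 4494 to 6407, abundant alike genes from 644 to 1309, genes with a called spread difference from 0 to 0, the library deviation difference from 0.11 to 0.264, and the difference in median gene SD from 0.0965 to 0.314. A margin of 1.5-fold gave 878 genes with an interval inside it and 0 abundant alike genes, and a margin of 4-fold gave 12045 and 1716. At 50 CPM or more, 1955 of 3303 genes were alike. Without Red Angus replicate 5 and F1 replicate 2, 469 abundant genes were alike and the deviation difference was 0.201 (exact permutation p = 0.0238). With both left out, 2826 of 12915 genes (21.9%) had an unadjusted p under 0.05. The causes of these shifts were not tested. The other alternatives were 47 of 55 with all libraries or both of those left out. They kept direction and side of the threshold, or counts stayed within 1.5 times. The difference in median gene SD had a looser rule: same direction, and a shift under the pooled within-group SD of the library deviations. Removing the first component thus counted among the 47, although that difference fell from 0.185 to 0.0687. Abundant alike genes numbered 765 with no filter, 817 with separate group spreads and 1031 by limma-voom. No paired analysis was possible because the labels give no pairing of animals between the groups. Scarce genes are limited by counting depth and the interval widths given above.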
